A study of Mus musculus with 6 samples.

Results

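The heat shock proteins and DnaJ chaperones described here are the protein-coding genes whose symbols carry the Hsp90, Hspa, Hspb, Hspd, Hspe or Hsph stem, or the Dnaja, Dnajb or Dnajc stem, followed by a number. They were picked by name alone, which gave 73 of 36976 genes in the table, or 73 of its 22380 protein-coding genes. RNA-Seq was performed on long-term (LT) CML stem cells, sorted from bone marrow as CD150+CD48-CD135- cells of the lineage-negative, Sca-1+ and cKit+ fraction, to ask what the loss of Gdpd3, a lysophospholipase D gene, changes in them. All mice were C57BL/6 tet-CML animals carrying SCL-tTA and TRE-BCR-ABL1, in which the Scl promoter drives a transactivator that switches on BCR-ABL1 once doxycycline is withdrawn. Doxycycline was withdrawn at 5 weeks of age and cells were taken 5 weeks later. The 3 Gdpd3+/+ libraries (replicates 1, 2 and 3) came from 34 mice (22 male, 12 female). The 3 Gdpd3-/- libraries (replicates 5, 6 and 7) came from 10 mice (5 of each sex) whose Gdpd3 gene carries a short Cas9-made deletion just after the start codon. The animals behind each library are not stated.

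Gdpd3 itself was read first in every library, as FPKM (fragments scaled by gene length and mapped total, a level corrected for gene length and depth). Gdpd3+/+ replicates 1, 2 and 3 held 7.30, 3.29 and 2.95 FPKM of it, and Gdpd3-/- replicates 5, 6 and 7 held 0.110, 0.0129 and 0.681 FPKM (log2 fold change -4.00, limma adjusted p = 0.0588). Every Gdpd3-/- library thus lay below every Gdpd3+/+ library, as labelled. The depth read back from the table came to 4.98, 6.28 and 6.13 Gb (gigabases of covered sequence) for the Gdpd3+/+ libraries and 2.13, 3.64 and 2.51 Gb for the Gdpd3-/- libraries, in the same order. The deeper group is therefore the Gdpd3+/+ group, with a median depth 2.44 times that of Gdpd3-/-, and depth and genotype cannot be told apart. Of the sort markers, Slamf1 (CD150), Kit and Ly6a (Sca-1) were present in all 6 libraries. Transcripts of Flt3 (CD135), which the sort removes at the surface, were present too, at 11.0, 10.6 and 9.80 FPKM in Gdpd3+/+ and 46.5, 37.8 and 36.8 FPKM in Gdpd3-/- libraries. Cd48, removed in the same way, had 39.8, 41.2 and 44.8 FPKM in Gdpd3+/+ and 51.6, 54.0 and 92.2 FPKM in Gdpd3-/- libraries, and both genes were higher without overlap. Flt3 passed the test (log2 fold change 1.93, limma adjusted p = 0.00562) and Cd48 did not (0.60, 0.188).

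Heat shock proteins bind unfolded or partly folded proteins and release them in cycles of ATP use, and DnaJ proteins deliver clients to Hsp70 and trigger its ATPase. Heat shock factor 1 switches on the inducible cytosolic members when unfolded protein builds up, whereas the chaperones of the endoplasmic reticulum (ER) follow the unfolded protein response through Xbp1 and Atf6. Small heat shock proteins hold clients without ATP and are abundant in skeletal and heart muscle, while haematopoietic cells rely mainly on the constitutive Hsc70 (Hspa8) and Hsp90 (Hsp90ab1).

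The chaperones as a whole showed no direction of their own beside that of all genes. Of the 73 members, 71 passed the filter of a mean FPKM of at least 0.05, Dnajc5g was listed at 0 in all 6 libraries, and Dnajb8 was listed above 0 only in Gdpd3+/+ replicate 1. With limma and Benjamini-Hochberg adjusted p-values over all 24689 genes tested, 2 members rose (Hspa1b and Hspe1) and none fell at an adjusted p under 0.05, which is 2.82% of the members tested beside 1.71% of all genes tested (1.09% higher and 0.616% lower, a balance that turned to 112 higher and 254 lower genes under TMM scaling and 119 and 206 under quantile normalization). Every Gdpd3-/- library lay above every Gdpd3+/+ library for 19 members (26.8%, beside 23.5% of all genes tested) and below for 8 members (11.3%, beside 8.27%), shares near those of all genes. The log2 fold change was above 0 for 47 members and below for 24, beside 16066 and 8623 of all genes tested. Its median was 0.12 over the members and 0.24 over all genes tested, on the log2(FPKM + 0.1) scale. TMM scaling moved the median of all genes to 0.04 and that of the members to -0.09, and quantile normalization moved them to -0.01 and -0.02, so the sign of the members' median rests on the scaling. Relative to all genes the members' median was -0.12.

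**Figure D1:**
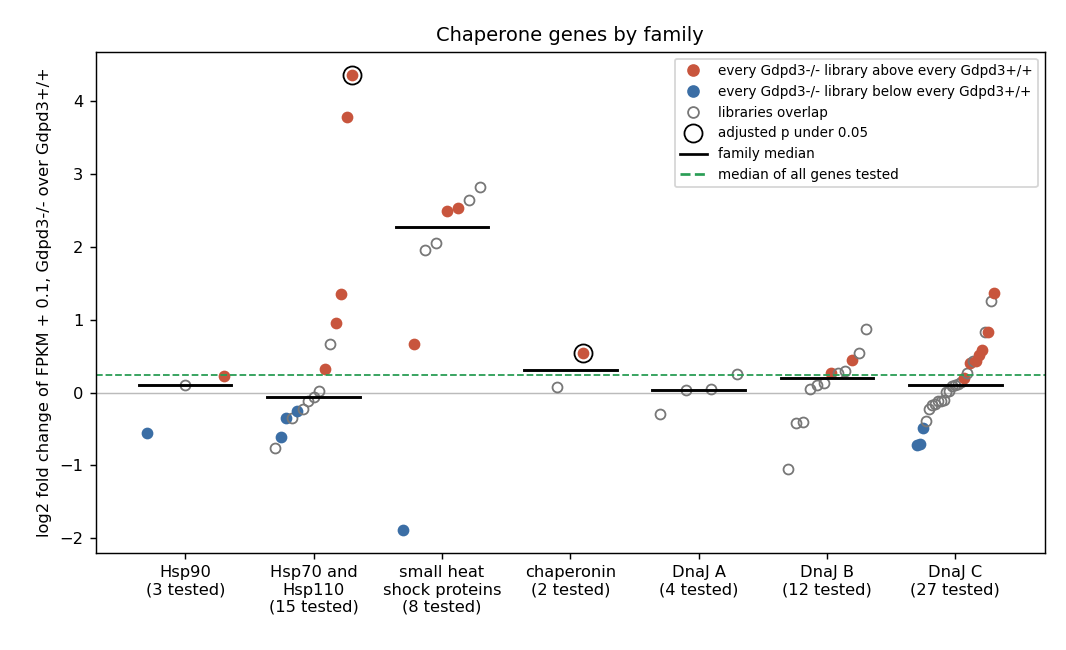
Each point is the log2 fold change of FPKM + 0.1 (Gdpd3-/- over Gdpd3+/+, vertical axis) of a member that passed the filter, sorted within its family (horizontal axis), with filled points for members whose 3 against 3 libraries do not overlap and rings for an adjusted p under 0.05. Most points lie near the dashed median of all genes tested (0.24), apart from Hspa1b and Hspa1a at 4.37 and 3.78 and the small heat shock proteins with a median of 2.27.

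Differences between families were not tested, and their medians are given as values. The Hsp90 genes (3 members) had a median log2 fold change of 0.10, the Hsp70 and Hsp110 genes (15) -0.07, the chaperonin pair 0.31, and the DnaJ A (4), B (12 tested) and C (27 tested) genes 0.04, 0.20 and 0.10. The small heat shock proteins (8) stood at 2.27. Under TMM scaling the Hsp90, DnaJ A and DnaJ C medians turned to -0.12, -0.17 and -0.11, and that of the small heat shock proteins was 2.05, with all genes then at 0.04. The DnaJ B median was 0.01 under TMM scaling and -0.005 under quantile normalization, and that of the chaperonin pair was 0.09 and 0.15. Single libraries also set some signs and sizes. The small heat shock median was 1.81, 1.74 and 3.12 without Gdpd3-/- replicates 5, 6 and 7 in turn, and 0.39 without both 5 and 6. The Hsp70 and Hsp110 median turned to 0.14 without Gdpd3+/+ replicate 2, 0.04 without Gdpd3-/- replicate 6 and 0.01 with a pseudocount of 1. It was -0.34 without Gdpd3-/- replicate 7 and 0.43 without Gdpd3-/- replicates 5 and 6. The Hsp90 median turned to -0.01 and the DnaJ A median to -0.19 without Gdpd3-/- replicate 7, the DnaJ A median to -0.04 without Gdpd3+/+ replicate 2, and the DnaJ C median to -0.01 without Gdpd3-/- replicate 6. By level, Hsp90ab1 was the most abundant member with a mean FPKM of 435 over the 6 libraries, followed by Hspa8 with 293 and Hspa5 with 186. The FPKM of all members summed to 2247, 2260 and 2191 for the Gdpd3+/+ libraries, and for the Gdpd3-/- libraries to 2432, 2541 and 2727. The summed level was thus higher in each Gdpd3-/- library, with a ratio of the group means of 1.15 (p = 0.1 by exact permutation, two-sided, which is as small as 3 against 3 libraries can give), beside 1.12 for the sum over all protein-coding genes tested and 0.826 for that over all genes tested. Without the small heat shock proteins the sums overlapped between the genotypes.

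The heat-inducible Hsp70 genes Hspa1a and Hspa1b, neighbours on chromosome 17, had the largest log2 fold changes of all members with the pseudocount of 0.1. With a pseudocount of 1 they had 2.57 and 1.82 (Hspa1b and Hspa1a), beside a median of 1.88 for the small heat shock proteins. They encode nearly the same stress-induced Hsp70, so reads can be shared or lost between them, and their promoters are alike as well. The RefSeq promoters (GRCm38.p6, 250 bases before to 50 after the start, minus strand) match at 296 of 300 positions (98.7%). They are shown for the log2 fold changes above, with capitals marking GAANNTTC, a pair of inverted heat shock factor units, which reads the same on both strands.
Hspa1a, chr17:34972107-34972406: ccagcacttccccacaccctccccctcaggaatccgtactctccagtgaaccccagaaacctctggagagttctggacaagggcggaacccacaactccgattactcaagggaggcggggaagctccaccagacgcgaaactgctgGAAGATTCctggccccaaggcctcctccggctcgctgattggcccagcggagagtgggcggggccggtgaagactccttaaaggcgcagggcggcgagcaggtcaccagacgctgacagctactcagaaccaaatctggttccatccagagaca
Hspa1b, chr17:34959189-34959488: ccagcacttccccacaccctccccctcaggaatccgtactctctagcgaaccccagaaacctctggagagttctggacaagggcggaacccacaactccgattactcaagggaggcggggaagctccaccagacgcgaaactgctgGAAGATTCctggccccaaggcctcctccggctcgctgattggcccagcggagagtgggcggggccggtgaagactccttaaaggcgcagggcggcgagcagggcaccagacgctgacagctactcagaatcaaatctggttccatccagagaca
The pair begins at position -104 in both and occurs in 7.86% of the 32851 promoters of that length.

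Hspa1b had 0.264, 0.136 and 0.194 FPKM in the Gdpd3+/+ libraries, and 2.85, 6.16 and 11.9 FPKM in the Gdpd3-/- libraries. It was near the floor in the Gdpd3+/+ libraries (about 25, 16 and 22 reads of 150 bases) and well above it in each Gdpd3-/- library (about 114, 420 and 559 reads), with the highest value in replicate 7. Hspa1b rose with a log2 fold change of 4.37 (standard error 0.55, adjusted p = 0.0275 from limma). Hspa1a had 0.116, 0.117 and 0.0753 FPKM in the Gdpd3+/+ libraries, and 0.908, 2.91 and 6.97 FPKM in the Gdpd3-/- libraries. It followed the same order of libraries without overlap, and its log2 fold change of 3.78 (standard error 0.72) had an adjusted p of 0.0584 from limma. It passed with a pseudocount of 0.01 (limma adjusted p = 0.0444), array weights (0.0491), protein-coding genes only (0.0381), and without Gdpd3-/- replicate 5 (0.0430) or 7 (0.0315). About 9 to 14 reads of 150 bases stood behind the Gdpd3+/+ values of Hspa1a, whose exons share 552 bases with an opposite-strand gene. Summed over both genes, Gdpd3-/- replicates 5, 6 and 7 had 12.5, 30.2 and 62.8 times the Gdpd3+/+ mean. The call of Hspa1b was lost when any Gdpd3+/+ library was left out (limma adjusted p = 0.158 to 0.163), with a pseudocount of 1 (0.0577) and with no intensity trend (0.0503), and was kept without each Gdpd3-/- library.

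Hspe1, the mitochondrial co-chaperonin Hsp10, rose by much less but evenly. Levels of 54.1, 55.3 and 52.2 FPKM in the Gdpd3+/+ libraries stood beside 74.3, 80.1 and 82.2 FPKM in the Gdpd3-/- libraries. All 3 Gdpd3-/- libraries stood close together above the Gdpd3+/+ libraries, with means of 78.9 ± 4.11 and 53.9 ± 1.56 FPKM (SD, n = 3 each). The log2 fold change of Hspe1 was 0.55 (standard error 0.09, adjusted p = 0.0443 from limma), or 0.31 above the median of all genes. The call was lost under TMM scaling (limma adjusted p = 0.140), quantile normalization (0.0999), no intensity trend (0.166) and array weights (0.0752), and without any Gdpd3+/+ library (0.215 to 0.247) or Gdpd3-/- replicate 5 (0.0582) or 6 (0.0533). Its partner Hspd1 (Hsp60), transcribed away from the same promoter on chromosome 1, had 103, 97.9 and 93.5 FPKM in the Gdpd3+/+ libraries and 88.5, 97.6 and 129 FPKM in the Gdpd3-/- libraries. The genotypes overlapped for Hspd1, and only Gdpd3-/- replicate 7 lay above all Gdpd3+/+ libraries. The shared promoter holds a full heat shock element of alternating units, spelled as GAA, TTC and GAA with 2 free bases between units, or TTC, GAA and TTC on the other strand, and every such element contains GAANNTTC. It is shown on the Hspe1 strand (RefSeq, GRCm38.p6, plus strand), with the element in capitals as 2 overlapping matches.
Hspe1, chr1:55087898-55088197: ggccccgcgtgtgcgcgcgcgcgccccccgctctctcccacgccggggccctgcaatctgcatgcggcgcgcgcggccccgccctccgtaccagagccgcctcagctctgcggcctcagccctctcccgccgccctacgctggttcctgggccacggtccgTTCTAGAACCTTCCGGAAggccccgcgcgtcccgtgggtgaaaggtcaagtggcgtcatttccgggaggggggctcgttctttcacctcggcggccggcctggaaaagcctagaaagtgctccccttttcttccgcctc
This element occurs in 0.603% of all promoters of that length and in the promoters of 4 of the 58 member symbols that matched the RefSeq table (Dnajb6, Hspd1, Hspe1 and Hsph1). The strict element was not in the Hspa1a and Hspa1b windows, which says nothing about heat shock factor binding there.

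The other genes of the heat-inducible list, which also holds constitutive partners and the mitochondrial pair Hspe1 and Hspd1, were higher by smaller steps, overlapped or, for Hspa4l, were lower. Hspa8, the constitutive Hsc70, had 264, 262 and 248 FPKM in Gdpd3+/+ and 278, 295 and 411 FPKM in Gdpd3-/- libraries. Hsp90ab1 had 390, 422 and 388 FPKM in Gdpd3+/+ and 437, 479 and 496 FPKM in Gdpd3-/- libraries. Dnajb1 (Hsp40), the main DnaJ partner of inducible Hsp70, had 41.0, 47.4 and 40.8 FPKM in Gdpd3+/+ and 54.2, 52.3 and 70.4 FPKM in Gdpd3-/- libraries. For these 3 genes each Gdpd3-/- library lay above each Gdpd3+/+ library and replicate 7 was the highest, but limma's adjusted p was 0.280, 0.226 and 0.140. Their log2 fold changes of 0.33, 0.23 and 0.44 became 0.10, 0.01 and 0.22 under TMM scaling, so that of Hsp90ab1 was no more than the shift of all genes. Dnajb4, a further DnaJ B protein, had 7.50, 8.25 and 8.50 FPKM in Gdpd3+/+ and 10.9, 9.58 and 8.90 FPKM in Gdpd3-/- libraries. It also did not overlap, but replicate 7 was the lowest of its Gdpd3-/- libraries, and its log2 fold change of 0.27 became 0.05 under TMM scaling. Hsp90aa1, the inducible Hsp90, had 140, 136 and 138 FPKM in Gdpd3+/+ and 127, 147 and 174 FPKM in Gdpd3-/- libraries, and Dnaja1 had 28.2, 26.1 and 26.8 FPKM against 33.0, 25.7 and 40.3 FPKM. Both overlapped, with replicate 7 the highest library, and replicate 6 for Hsp90aa1 and replicate 5 for Dnaja1 also above the Gdpd3+/+ range. Hsph1 (Hsp110), a nucleotide exchange factor for Hsp70, overlapped widely, with 5.39, 6.57 and 4.75 FPKM in Gdpd3+/+ and 5.80, 2.88 and 10.5 FPKM in Gdpd3-/- libraries. Hspa4l, of the same exchange factor group, was lower in each Gdpd3-/- library (3.82, 4.22 and 3.94 FPKM) than in Gdpd3+/+ (5.45, 4.81 and 5.13 FPKM), with an adjusted p of 0.257 from limma.

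**Figure D2:**
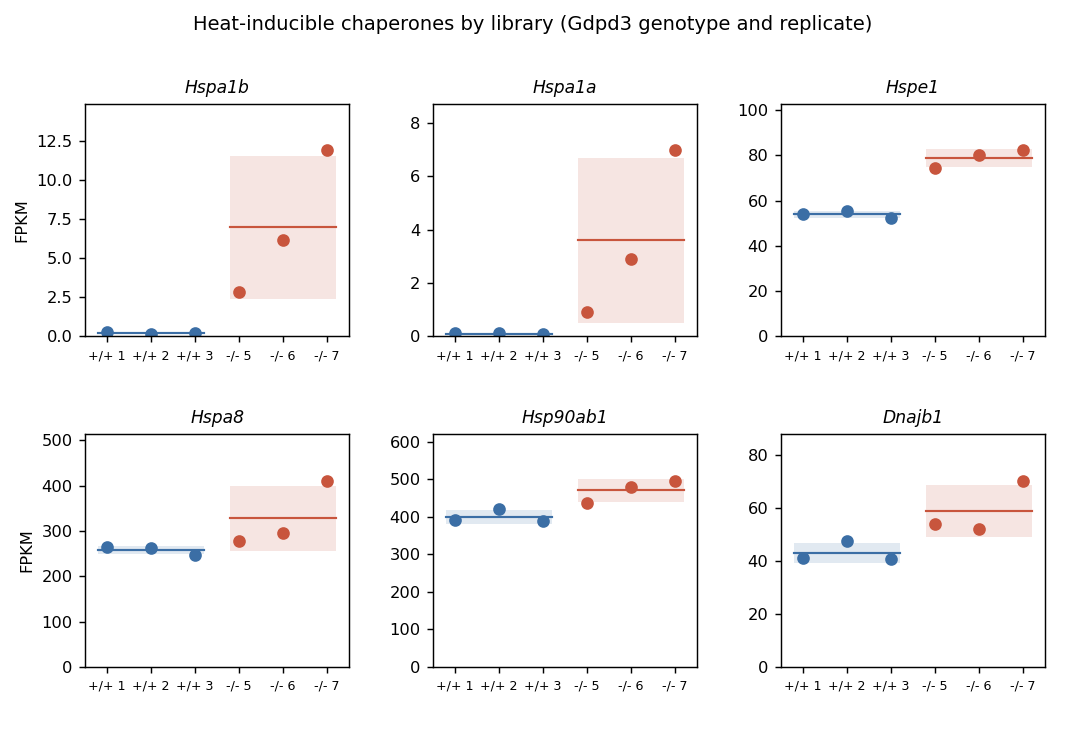
FPKM (vertical axes, from 0) in each library (horizontal axes) of 6 genes chosen from the 7 of 13 heat-inducible list members that were higher without overlap (all but Dnajb4, which was highest in replicate 5), with lines at the group means and bands of 1 SD. Hspa1b and Hspa1a are near 0 in the Gdpd3+/+ libraries, and every Gdpd3-/- library lies above them in each panel, highest in replicate 7.

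Over the 13 genes of this list, Hspa1b and the mitochondrial Hspe1 passed the test, and 7 lay higher and 1 lower without overlap (beside 1.71%, 23.5% and 8.27% of all genes tested). The median log2 fold change was 0.27 beside 0.24 for all genes. It was 0.05 under TMM scaling and 0.16 under quantile normalization, with all genes at 0.04 and -0.01. Leaving out Gdpd3-/- libraries gave 0.43 without replicate 6, 0.19 without replicate 7 and 0.57 without replicates 5 and 6. In 10 of the 13, Gdpd3-/- replicate 7 was the highest library, as it was for 5017 of all 24689 genes tested. The immediate early genes also respond to cell handling. Of 12 such genes 11 lay higher without overlap and 2 passed the test (beside 23.5% and 1.71% of all genes tested), none was at 0 in any library, and replicate 7 was the highest for 10. Their FPKM summed to 896, 1009 and 923 for the Gdpd3+/+ libraries and 1869, 1357 and 2532 for the Gdpd3-/- libraries, with Fos the most abundant. The part of cell handling in the Hsp70 values was not tested. Without Gdpd3-/- replicates 5 and 6, a setting chosen after seeing the data in which replicate 7 is assumed to vary like the other libraries, 6 of 69 members passed the test (Dnaja1, Hsp90aa1, Hspa1a, Hspa1b, Hspa8 and Hspe1), beside 2294 of 22510 genes.

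The small heat shock proteins showed another arrangement of libraries. Hspb6 (Hsp20) had 15.9, 13.0015 and 10.6 FPKM in the Gdpd3+/+ libraries, and 120.0, 142 and 23.5 FPKM in the Gdpd3-/- libraries. Hspb2, a muscle protein encoded next to the crystallin gene Cryab, had 4.65, 4.11 and 2.57 FPKM in Gdpd3+/+ and 41.8, 49.0 and 4.90 FPKM in Gdpd3-/- libraries. Both were high in replicates 5 and 6 and nearer to the Gdpd3+/+ range, but above it, in replicate 7. Hspb7, a heart and muscle protein, had 1.55, 0.938 and 1.05 FPKM in Gdpd3+/+ and 23.7, 12.3 and 1.51 FPKM in Gdpd3-/- libraries. Hspb1 (Hsp25), the most widely expressed of the family, had 4.11, 1.79 and 1.84 FPKM in Gdpd3+/+ and 15.03, 21.1 and 3.34 FPKM in Gdpd3-/- libraries. These overlapped, since replicate 7 lay inside the Gdpd3+/+ range while replicates 5 and 6 lay far above it. Hspb3 had 2.06, 0.694 and 0.293 FPKM in Gdpd3+/+ and 7.50, 19.1 and 1.53 FPKM in Gdpd3-/- libraries, and Hspb8, which works with Bag3, had 0.752, 1.32 and 2.08 FPKM against 9.01, 11.9 and 1.31 FPKM. The same arrangement held for both. The log2 fold changes of these 6 genes ran from 1.95 (Hspb8) to 2.82 (Hspb3), with limma adjusted p-values from 0.0976 (Hspb6) to 0.231 (Hspb8), so none passed the test. All 6 passed it without Gdpd3-/- replicate 7, where 3413 of 24056 genes passed, and none did without replicates 5 and 6.

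Of the remaining pair of the family, Hspb11 was also highest in Gdpd3-/- replicates 5 and 6 but by less, and Hspb9 was lower. Hspb11, a ciliary transport protein that shares the name only, had 2.34, 3.0 and 3.01 FPKM in Gdpd3+/+ and 4.82, 5.58 and 3.28 FPKM in Gdpd3-/- libraries, without overlap. Hspb9, a testis protein, was near the floor at 0.443, 0.724 and 0.135 FPKM in Gdpd3+/+, and was listed at 0 in Gdpd3-/- replicates 5 and 6 and at 0.110 FPKM in replicate 7 (about 1 read).

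Skeletal muscle markers had a similar order of libraries. All 23 of 23 markers on the list lay higher in each Gdpd3-/- library without overlap and none passed the test (beside 23.5% and 1.71% of all genes tested), none was at 0 in any library, and their median log2 fold change was 2.85. Their FPKM summed to 1897, 1334 and 1270 for the Gdpd3+/+ libraries and 16525, 23555 and 3135 for the Gdpd3-/- libraries, with Acta1 the most abundant. Relative to the Gdpd3+/+ mean the marker sum was 11.0, 15.7 and 2.09 in Gdpd3-/- replicates 5, 6 and 7, and the sum of Hspb1, Hspb2, Hspb3, Hspb6, Hspb7 and Hspb8 was 9.39, 11.0 and 1.56. Both sums thus had the same order of Gdpd3-/- libraries. Each of these Hspb genes had it too except Hspb7, which was highest in replicate 5 (20.2, 10.5 and 1.28 in replicates 5, 6 and 7). The part of muscle RNA in the values of the small heat shock proteins was not tested. Hspa1a and Hspa1b had another order, being highest in replicate 7, where the muscle sum was lowest among the Gdpd3-/- libraries.

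**Figure D3:**
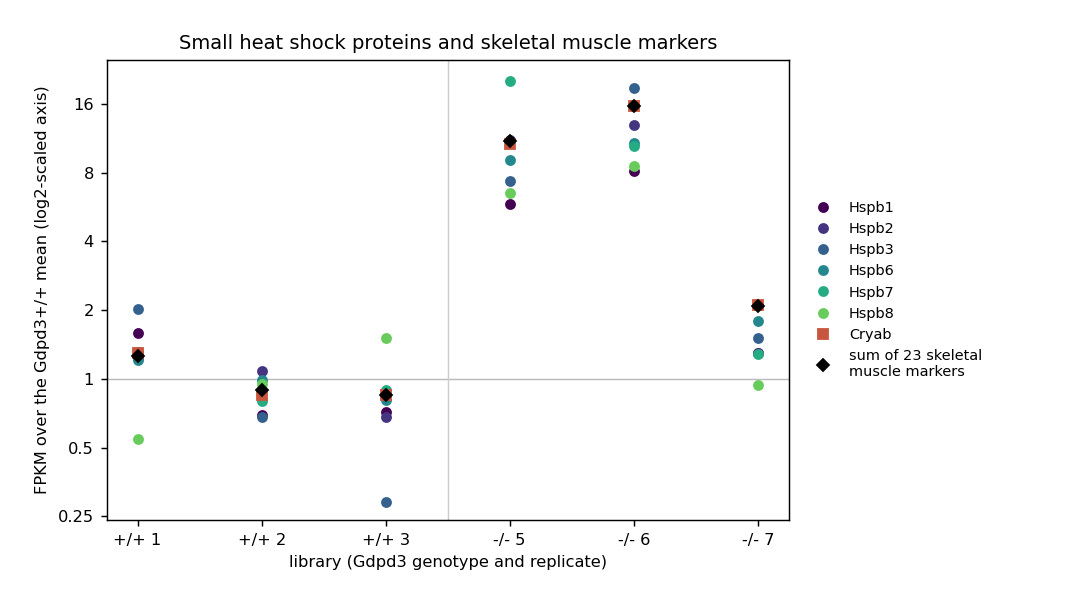
FPKM in each library (horizontal axis) divided by the Gdpd3+/+ mean (vertical axis, log scale) for 6 small heat shock proteins, Cryab and the sum of 23 skeletal muscle markers (black). Gdpd3-/- replicates 5 and 6 stand far above 1 for all of them (11.0 and 15.7 for the marker sum), and replicate 7 lies near the Gdpd3+/+ libraries (2.09).

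Of the ER chaperones, Hsp90b1 and Dnajc3 were lower in each Gdpd3-/- library and the other 8 overlapped. Hsp90b1 (Grp94), the Hsp90 of the ER, had 139, 124 and 143 FPKM in Gdpd3+/+ and 78.5, 85.7 and 115 FPKM in Gdpd3-/- libraries. Dnajc3 (p58IPK), an ER DnaJ protein that works with BiP, had 35.2, 33.3 and 32.7 FPKM in Gdpd3+/+ and 23.6, 21.2 and 28.1 FPKM in Gdpd3-/- libraries. Both lay below Gdpd3+/+ without overlap, with replicate 7 the nearest to it, and both missed the threshold (log2 fold changes of -0.56 and -0.48, limma adjusted p = 0.109 and 0.101). They and Hspa13 passed it without Gdpd3-/- replicate 7 (limma adjusted p = 0.0147, 0.0230 and 0.0197), where 3413 of 24056 genes did. Hspa5 (BiP), the ER Hsp70, overlapped, with 193, 199.8 and 201 FPKM in Gdpd3+/+ and 173, 124 and 228 FPKM in Gdpd3-/- libraries. Dnajb11, a co-chaperone of BiP, had 38.8, 37.0 and 40.2 FPKM in Gdpd3+/+ and 20.1, 29.5 and 40.7 FPKM in Gdpd3-/- libraries. Hspa13, a microsomal Hsp70-like protein, had 7.96, 7.81 and 6.23 FPKM in Gdpd3+/+ and 3.02, 3.29 and 7.77 FPKM in Gdpd3-/- libraries. For these 3 genes replicate 7 lay within or above the Gdpd3+/+ range, while replicates 5 and 6 lay below it. Dnajc10, a disulfide reductase, was low only in replicate 6 (11.0 FPKM, against 21.9 to 26.8 FPKM in Gdpd3+/+), and Dnajb9 ran from 8.53 to 21.5 FPKM among the Gdpd3-/- libraries around a Gdpd3+/+ mean of 11.9 FPKM. The membrane DnaJ proteins Dnajb12, Dnajb14 and Dnajc1 overlapped, with log2 fold changes of 0.29, 0.04 and 0.01.

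The 3 promoters of members that hold the ER stress element, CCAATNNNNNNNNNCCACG on either strand, were those of Hspa5, Hsp90b1 and Dnajc3, beside 0.119% of all promoters of that length. They are shown (RefSeq, GRCm38.p6, each on its gene's strand) because the latter pair held the lowest ER chaperone values without overlap, with the element in capitals.
Hsp90b1, chr10:86705395-86705694, minus strand: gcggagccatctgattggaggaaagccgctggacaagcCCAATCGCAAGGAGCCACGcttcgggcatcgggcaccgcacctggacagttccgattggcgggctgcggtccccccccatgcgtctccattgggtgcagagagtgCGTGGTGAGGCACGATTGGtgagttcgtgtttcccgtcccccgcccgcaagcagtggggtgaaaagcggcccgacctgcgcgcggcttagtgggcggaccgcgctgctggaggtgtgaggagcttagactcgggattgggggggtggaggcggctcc
Dnajc3, chr14:118937682-118937981, plus strand: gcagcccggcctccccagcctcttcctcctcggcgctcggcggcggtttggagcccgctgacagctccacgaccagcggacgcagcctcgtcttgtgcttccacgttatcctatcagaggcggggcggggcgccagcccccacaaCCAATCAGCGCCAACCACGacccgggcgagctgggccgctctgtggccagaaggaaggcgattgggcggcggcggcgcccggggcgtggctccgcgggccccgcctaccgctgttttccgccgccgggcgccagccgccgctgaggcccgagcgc
Hspa5, chr2:34771840-34772139, plus strand: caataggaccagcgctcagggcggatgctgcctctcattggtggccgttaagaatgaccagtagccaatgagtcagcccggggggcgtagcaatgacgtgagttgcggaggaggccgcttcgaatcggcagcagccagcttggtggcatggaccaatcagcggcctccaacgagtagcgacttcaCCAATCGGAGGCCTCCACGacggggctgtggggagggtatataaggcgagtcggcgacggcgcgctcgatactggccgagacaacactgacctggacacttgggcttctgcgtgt
Hsp90b1 has 2 matches, and Dnajc3 and Hspa5 have 1 each, at positions -105 and -65. Hspa5, with the same element, overlapped between the genotypes, so the match does not sort the 3 genes.

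Of the 10 ER members none passed the test, 2 lay lower without overlap and none higher (beside 1.71%, 8.27% and 23.5% of all genes tested), and the median log2 fold change was -0.31, or -0.55 relative to all genes. It stayed below 0 under TMM scaling (-0.53) and quantile normalization (-0.45) but was -0.20 without Gdpd3-/- replicate 5, -0.04 without replicate 6, -0.51 without replicate 7 and 0.04 without replicates 5 and 6. In the wider unfolded protein response list of 17 genes, Xbp1, the factor that drives ER folding capacity and plasma cell secretion, was the only one to pass the test. Xbp1 had 275, 246 and 275 FPKM in Gdpd3+/+ and 133, 113 and 158 FPKM in Gdpd3-/- libraries. It fell in each Gdpd3-/- library, with a log2 fold change of -0.99 (standard error 0.14, adjusted p = 0.0334 from limma). The call of Xbp1 was lost with no filter on low values (limma adjusted p = 0.0532), with no intensity trend (0.110), and without any Gdpd3+/+ library (0.172 to 0.197) or Gdpd3-/- replicate 5 (0.0720). In that list 1 of 17 genes passed, and 5 lay lower and 4 higher without overlap (beside 1.71%, 8.27% and 23.5% of all genes tested), with a median log2 fold change of -0.37. The median was -0.59 under TMM scaling, -0.57 without Gdpd3-/- replicate 7 and 0.04 without replicates 5 and 6.

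Plasma cell markers were lower in the same libraries. All 10 of 10 lay below Gdpd3+/+ in each Gdpd3-/- library and 2 passed the test (beside 8.27% and 1.71% of all genes tested), none was at 0, and their median log2 fold change was -1.30. Their FPKM summed to 117613, 126384 and 136006 for the Gdpd3+/+ libraries and 59410, 40066 and 68720 for the Gdpd3-/- libraries, with Igkc the most abundant. The sum was lowest in replicate 6 and highest in replicate 7 among the Gdpd3-/- libraries, as was the sum over the ER members. The ER sum was 361, 297 and 472 FPKM in replicates 5, 6 and 7 beside 464, 449 and 471 FPKM in Gdpd3+/+. Of the single ER members, only Hspa5, Dnajc3 and Dnajc10 had that order. Hsp90b1, Dnajb11 and Hspa13 were lowest in replicate 5 and highest in replicate 7, and Dnajb9, Dnajb12, Dnajb14 and Dnajc1 had other orders. The sort gates used here should leave out plasma cells, neutrophils and muscle, and the source of their RNAs was not tested. Fewer such cells and less of these RNAs per cell cannot be told apart in bulk libraries, and their part in the ER chaperone values was not tested. Neutrophil markers were lower too, with 9 of 9 below Gdpd3+/+ without overlap and 5 past the test. Of the erythroid markers, 2 of 7 lay lower without overlap and none passed. Both lists stand beside the same shares of all genes.

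**Figure D4:**
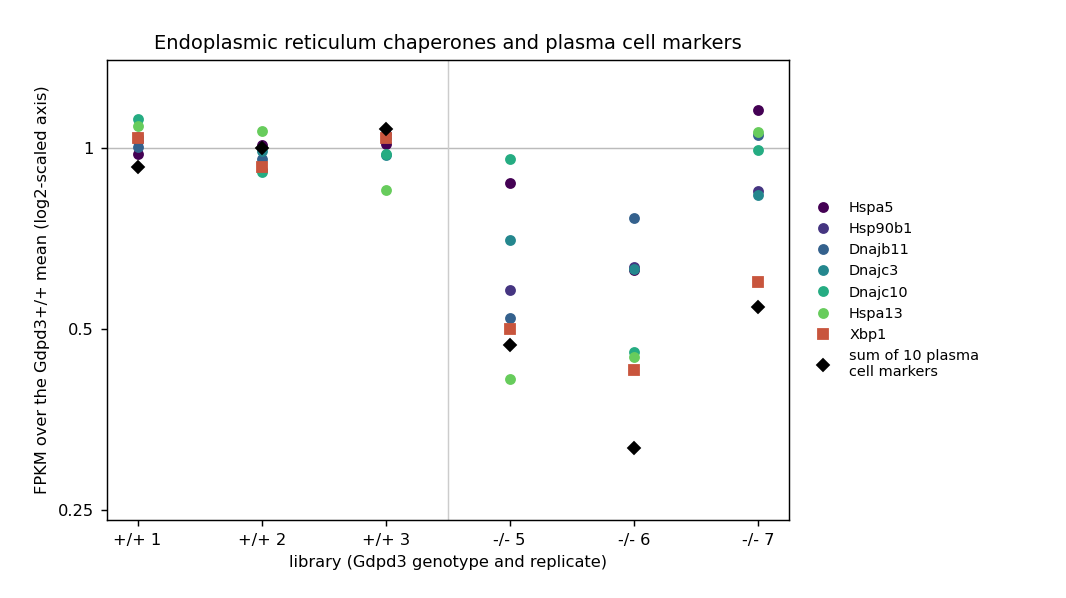
FPKM in each library (horizontal axis) divided by the Gdpd3+/+ mean (vertical axis, log scale) for 6 of the 10 ER chaperones, Xbp1 and the sum of 10 plasma cell markers (black). The 6 shown are those with a log2 fold change below 0. The other 4 of the 10 (Dnajb9, Dnajb12, Dnajb14 and Dnajc1) had one above 0 and are not drawn. The marker sum is 0.469, 0.316 and 0.543 in Gdpd3-/- replicates 5, 6 and 7, and the ER chaperones in replicate 7 lie nearer to 1 than most of those in replicates 5 and 6.

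Among the mitochondrial chaperones, Dnajc15 (Mcj), an inner membrane protein that restrains respiratory complex I, stood out beside Hspe1. It had 59.8, 64.3 and 59.7 FPKM in the Gdpd3+/+ libraries, and 116, 146 and 77.5 FPKM in the Gdpd3-/- libraries. It was higher in every Gdpd3-/- library, most in replicates 5 and 6, with a log2 fold change of 0.84 (standard error 0.22, adjusted p = 0.0980 from limma). Dnajc19, a relative in the protein import motor, had 16.7, 17.7 and 17.6 FPKM in Gdpd3+/+ and 25.6, 33.2 and 18.3 FPKM in Gdpd3-/- libraries. It kept the same order of Gdpd3-/- libraries, and it shares 178 exon bases with the opposite-strand gene Fxr1. Such sharing holds for 20 of the 73 members, among them Hspe1 (112 bases with Hspd1), Hsp90b1 (415) and Dnaja1 (608 with Smu1), and whether counting heeded strand is not stated. Both Dnajc15 and Dnajc19 passed the test without replicate 7, where 2364 genes were called higher and 1049 lower among 24056. Their order of Gdpd3-/- libraries was that of the muscle marker sum, but their sizes were not. Relative to the Gdpd3+/+ mean, replicates 5, 6 and 7 had 1.90, 2.38 and 1.27 for Dnajc15 and 1.48, 1.92 and 1.05 for Dnajc19. The muscle marker sum had 11.0, 15.7 and 2.09. The part of muscle RNA in the values of both genes was not tested. Hspa9 (mortalin), the Hsp70 of the import motor, had 113, 116 and 105 FPKM in Gdpd3+/+ and 98.1, 83.4 and 133 FPKM in Gdpd3-/- libraries, and Dnaja3 (Tid1) had 25.3, 25.03 and 22.3 FPKM against 22.5, 22.6 and 30.8 FPKM. These and Dnajc11, a cristae protein with 8.15, 7.999 and 8.10 FPKM in Gdpd3+/+ and 6.41, 10.3 and 9.83 FPKM in Gdpd3-/- libraries, overlapped between the genotypes. Of the 7 mitochondrial members 1 passed the test and 3 lay higher without overlap, beside 1.71% and 23.5% of all genes tested. Their median log2 fold change was 0.10, and -0.12 under TMM scaling, 0.31 without Gdpd3-/- replicate 5 and 0.01 without replicate 7.

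Outside these lists, among members without overlap whose mean FPKM reached 1, the lowest log2 fold changes belonged to Dnajc12, Dnajc13 and Hspa14. Dnajc12, which helps fold aromatic amino acid hydroxylases, had 2.26, 2.80 and 3.06 FPKM in Gdpd3+/+ and 1.68, 1.09 and 2.16 FPKM in Gdpd3-/- libraries. Dnajc13 (Rme-8), an endosomal DnaJ protein, had 9.02, 8.50 and 8.37 FPKM in Gdpd3+/+ and 5.14, 3.51 and 7.90 FPKM in Gdpd3-/- libraries. Hspa14, a ribosome-associated Hsp70, occupies 2 overlapping entries, of which the longer had 12.4, 11.5 and 10.8 FPKM in Gdpd3+/+ and 6.48, 6.498 and 10.2 FPKM in Gdpd3-/- libraries. Each was lower without overlap and nearest to Gdpd3+/+ in replicate 7, with limma adjusted p-values of 0.242, 0.215 and 0.159. The 2 Hspa14 entries share 4314 exon bases, so their values are not independent, and the shorter overlapped between the genotypes. Over DnaJ A, B and C together 43 genes were tested, 31 overlapped, 9 lay higher and 3 lower without overlap, and none passed the test, beside 23.5%, 8.27% and 1.71% of all genes tested.

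The heat shock factors and co-chaperones gave no call among 34 genes, with 8 higher (23.5%, the share of all genes tested) and 1 lower without overlap and a median log2 fold change of 0.08. That median turned to -0.14 under TMM scaling and -0.065 under quantile normalization, and was 0.02 without Gdpd3-/- replicate 7. The largest changes without overlap belonged to Cryab, Bag3 and Serpinh1. Cryab (alpha-B crystallin), a small heat shock protein by descent, had 22.1, 14.4 and 14.4 FPKM in Gdpd3+/+ and 180.4, 265 and 35.6 FPKM in Gdpd3-/- libraries. Bag3, which joins Hspb8 to Hsp70, had 4.41, 4.51 and 3.62 FPKM in Gdpd3+/+ and 8.57, 13.6 and 4.58 FPKM in Gdpd3-/- libraries. Both kept the arrangement of the small heat shock proteins and the muscle markers, high in replicates 5 and 6. Serpinh1 (Hsp47), the collagen chaperone, had 0.875, 0.824 and 0.918 FPKM in Gdpd3+/+ and 1.598, 1.75 and 1.86 FPKM in Gdpd3-/- libraries, higher in each by a similar amount but short of the threshold (limma adjusted p = 0.129).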

How the data were processed

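The labels describe read pairs of 150 bases from SMART-Seq v4 and Nextera XT libraries. The submitters' processing notes name Trimmomatic, Trim Galore, cutadapt 1.16, STAR 2.6.1a, featureCounts 1.6.1, DESeq2 and mm9. The authors deposited FPKM for 36976 genes and a DESeq2 comparison, and the latter was not used. Read counts were not recovered, so depth was taken from the step between FPKM values times gene length. The fit used limma 3.58.1 (R 4.3.3) on log2(FPKM + 0.1), with genotype as its only term, variances that follow expression level, and a floor of 0.05 on mean FPKM. It was tested on simulated data that gave both groups the spread of the Gdpd3+/+ libraries. A wider spread in the Gdpd3-/- libraries was not simulated. Exact permutation tests, two-sided, served for sums. Members given with values were those past the test, those of the heat-inducible, ER, mitochondrial and small heat shock lists, and the 5 highest and 5 lowest log2 fold changes without overlap at a mean FPKM of at least 1. Co-chaperone and unfolded protein response genes were given if past the test, or else the 3 largest changes. Members and lists were chosen with earlier results of these data known. Motifs were searched in RefSeq promoters, where 58 of 72 member symbols matched, and a match is a description. The animals in each library are not stated, so p-values measure the spread between these libraries.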

Additional observations from a re-analysis of the deposited data

How the results depend on the processing

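Main settings called 422 genes and 2 members with limma. The count of genes was 225 with a pseudocount of 1, 213 with no filter, 673 at a mean FPKM of at least 1, 153 with no intensity trend, 240 with array weights, and 0 to 3413 with 1 library left out (0 without Gdpd3+/+ replicate 1, where 3356 genes and 12 members had an unadjusted limma p under 0.05, and 3413 without Gdpd3-/- replicate 7). Of the calls 64.0% were higher, beside 30.6% under TMM scaling and 36.6% under quantile normalization. Members called were 1 with a pseudocount of 1, TMM or quantile normalization, 0 with no trend, and 0 to 20 with 1 library left out. The members' median of 0.12 reversed to -0.089 (TMM) and -0.017 (quantile). Relative to all genes it was -0.12, and -0.036 with a pseudocount of 1, -0.039 with a mean of at least 1, -0.011 with quantile normalization, and -0.15 to -0.020 with 1 library left out. An alternative chosen after seeing the data left out Gdpd3-/- replicates 5 and 6, so that 1 Gdpd3-/- library is assumed to vary like the others. It called 2294 genes and 6 members, with a median of 0.25, or 0.030 relative to all genes. No reversed gene had passed the test. TMM and quantile normalization reversed Dnaja3 (-0.17, -0.059), Dnajb14 (-0.16, -0.38), Dnajc1 (-0.21, -0.23), Dnajc11 (-0.12, -0.0090), Hsp90aa1 (-0.12, -0.092), Hspd1 (-0.14, -0.10) and Hsph1 (-0.20, -0.15). The added alternative reversed Dnajb11 (0.073), Dnajb12 (-0.046), Hspa13 (0.091), the shorter Hspa14 entry (0.0018), Hspa5 (0.21) and Hspa9 (0.25). With 1 library left out the log2 fold change crossed 0 for Dnaja3 (-0.10 to 0.13), Dnajb14 (-0.030 to 0.11), Dnajb9 (-0.021 to 0.64), Dnajc1 (-0.053 to 0.087), Dnajc11 (-0.026 to 0.31), Hsp90aa1 (-0.013 to 0.21), Hspa5 (-0.44 to 0.0064), Hspa9 (-0.30 to 0.037), Hspd1 (-0.080 to 0.19) and Hsph1 (-0.42 to 0.49). Over 43 gene results, 605 values were the same, 24 stronger, 21 weaker and 37 reversed. The cause was not tested. No analysis in pairs was possible, as the genotypes share no replicate number. Depth and genotype cannot be told apart here, and neither can cell make-up and RNA per cell. The 3 libraries of a group came from animals of both sexes, and the number in each library is not stated.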

Other observations

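Of 79 genes whose names match, 6 are not protein-coding and were not counted as members. Among them Hspe1-ps5, a copy of Hspe1, had 0.333, 0.262 and 0.383 FPKM in Gdpd3+/+ libraries and 4.37, 0.647 and 0.478 FPKM in Gdpd3-/- libraries. These values rest on about 3, 3 and 5 reads in Gdpd3+/+ and 18, 5 and 2 reads in Gdpd3-/- libraries. Another copy, Hspe1-ps2, had 0.499, 0.724 and 0.815 FPKM in Gdpd3+/+ and 0.939, 2.22 and 1.38 FPKM in Gdpd3-/- libraries, on about 4 to 17 reads each.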
